A study of Rattus norvegicus with 26 samples.

Results

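Astrocytes are the glial cells that take up glutamate and potassium around synapses, pass water and ions at the vessel wall, supply glutamine and other metabolites to neurons, and in the dentate gyrus (DG) share many genes with the radial stem cells of the neurogenic niche. Of 36 astrocyte genes listed by name, 31 described the identity and work of these cells and 5 (Gfap, Vim, Cd44, Serpina3n and Lcn2) are used as markers of the reactive state, which astrocytes enter after injury or inflammation, commonly with more intermediate filament and more secreted acute phase protein. Rows of the deposited table that carried 1 of these names were summed by gene identifier, and genes that averaged 5 or more normalized counts over all rats were kept, which left 32 of the 36, 29 identity and 3 reactive genes, among the 15595 genes that passed the same filter. Lcn2 had a row but a mean of 3.12 and was described without a test, and the levels of Gpc5, Serpina3n and Prodh were not analysed here.

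Poly(A) RNA was sequenced from the DG of 26 male F344 rats, an inbred strain, 6 months old, with RNA of each rat taken from 1 hemisphere. Of these, 10 received vehicle by gavage (Veh), 8 received doxorubicin, an anthracycline chemotherapy drug, injected weekly at 2 mg/kg, for 4 weeks in all (Dox), and 8 received the same doxorubicin course and ABT-263 (navitoclax), an inhibitor of the BCL-2 family used to clear senescent cells, by gavage at 12 mg/kg on 5 days in a row every other week (Dox + ABT). The comparisons ask whether systemic chemotherapy changed these genes in the brain and whether the senolytic altered that change. No group received ABT-263 without doxorubicin, and the Veh rats belonged to an ongoing study of brain aging, so that a difference between cohorts cannot be told apart from treatment.

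Estimated depth ran from 10166200 to 24327900 reads in Veh, from 13453000 to 24144300 in Dox and from 12347100 to 20234500 in Dox + ABT. The libraries fell into 2 kinds that no label gives, told apart by their score on a leading principal component. The component was found after each group was centred, and the scores kept the differences between groups. The 16 libraries of the first kind (4 Veh, 5 Dox, 7 Dox + ABT) had 0.645% to 1.27% of their counts on ribosomal protein genes, and the 10 of the second kind (6 Veh, 3 Dox, 1 Dox + ABT) 1.34% to 2.16%. Since the kinds are unevenly spread over the groups, values within a kind, or with the kind as a covariate, are given beside the pooled ones for the called members and for a number of others. Dox rats 1 and 2, both of the first kind, stood apart in inflammatory genes described below, and values without them are given for the genes named below where these rats decide a call. These are whole-tissue samples, in which fewer astrocytes and less RNA per astrocyte cannot be told apart.

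The defining astrocyte genes were present in every rat. The lowest normalized count over the 26 rats was 9327 for Gfap, 2215 for Aqp4, 10646 for S100b, 231 for Aldh1l1, 7690.5 for Slc1a3 and 2264 for Slc1a2. Counts were not divided by gene length, so levels were compared between rats and not between genes.

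Against Veh, the Dox rats had less of the filament gene Gfap, the water channel gene Aqp4, the folate enzyme gene Aldh1l1 and the regulator gene Id4, and no astrocyte gene was higher past the threshold in the fit of all rats. With limma on log2(normalized count + 1) and p under 0.01, 4 of the 32 genes were called and all 4 were lower (12.5%), against 2.87% of all genes tested (1.85% lower and 1.02% higher). The count was 3 to 7 with 1 rat left out, and 7 without Veh rat 10, Veh rat 11, Dox rat 10, Dox rat 14 or Dox + ABT rat 4. With the kind entered as a covariate the same 4 genes were called, beside 2.7% of all genes. Of the 29 identity genes 19 had a negative log2 fold change, as had 7633 of all 15595 genes tested, with a median of -0.10, beside a median of 0.0050 over all genes tested. Of the reactive genes, Gfap fell, while Vim and Cd44 passed in neither direction. Members share their rats and many of them vary together, so the counts describe the list and do not stand for independent observations. They were also chosen with earlier results of these data known, so the share called is a description only.

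The 250 bases that precede the transcription start of the 4 genes called between Dox and Veh are shown, with those of Lcn2, to show whether the letters of 4 motifs of astrocyte and inflammatory regulators stand in them. They are RefSeq promoters on build GRCr8, whereas the counts were made on rn6, so they were joined by symbol and not by position. For Aqp4, which has 2 annotated starts, the upstream one was taken. Capitals mark TTCNNNGAA (the STAT motif), TTGGCA (the nuclear factor I motif), AACAAT (the Sox motif) and ACANNNTGT (the glucocorticoid receptor motif), searched on both strands with overlaps allowed.
Gfap, chr10:88361662-88361911, minus strand: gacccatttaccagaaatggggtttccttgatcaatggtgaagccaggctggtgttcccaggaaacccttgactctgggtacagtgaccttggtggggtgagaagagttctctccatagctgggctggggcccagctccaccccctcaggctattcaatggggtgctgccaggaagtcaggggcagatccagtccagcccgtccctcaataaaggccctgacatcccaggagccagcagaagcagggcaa
Aqp4, chr18:6798843-6799092, minus strand: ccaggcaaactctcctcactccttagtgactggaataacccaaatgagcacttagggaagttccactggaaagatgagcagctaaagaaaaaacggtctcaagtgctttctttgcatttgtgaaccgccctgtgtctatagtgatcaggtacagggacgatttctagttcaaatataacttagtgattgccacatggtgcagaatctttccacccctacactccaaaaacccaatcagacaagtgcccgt
Aldh1l1, chr4:124616970-124617219, plus strand: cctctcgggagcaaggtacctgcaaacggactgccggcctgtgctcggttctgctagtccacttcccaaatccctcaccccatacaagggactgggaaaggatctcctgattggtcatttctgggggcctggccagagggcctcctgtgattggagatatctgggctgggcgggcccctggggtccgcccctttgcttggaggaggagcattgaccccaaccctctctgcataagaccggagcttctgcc
Id4, chr17:16598294-16598543, minus strand: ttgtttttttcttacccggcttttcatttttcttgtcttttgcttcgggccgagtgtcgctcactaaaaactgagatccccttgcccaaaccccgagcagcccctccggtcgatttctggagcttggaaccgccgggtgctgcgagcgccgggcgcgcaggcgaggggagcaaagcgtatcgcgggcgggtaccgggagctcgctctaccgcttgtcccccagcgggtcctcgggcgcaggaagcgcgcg
Lcn2, chr3:36081781-36082030, minus strand: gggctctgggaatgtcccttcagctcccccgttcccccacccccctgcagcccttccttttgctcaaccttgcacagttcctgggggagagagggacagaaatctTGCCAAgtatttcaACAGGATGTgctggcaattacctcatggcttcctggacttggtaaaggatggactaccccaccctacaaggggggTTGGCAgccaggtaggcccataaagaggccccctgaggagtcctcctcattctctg
None of the 4 motifs was present in the windows of Gfap, Aqp4, Aldh1l1 or Id4, which says only that these letters are not there. The Lcn2 window held 2 nuclear factor I motifs and 1 glucocorticoid receptor motif. Of the listed genes, 31 had a promoter in the table, with 39 starts in all. The STAT motif was in 10.3% of these 39 windows and in 7.67% of all 33469, the nuclear factor I motif in 20.5% and 12.02%, the Sox motif in 7.69% and 10.3%, and the glucocorticoid receptor motif in 10.3% and 5.81%. These shares rest on 3 to 8 windows each. The nuclear factor I motif was found in Gjb6, Glul, Lcn2, Mlc1, S100b and Slc1a3, and the glucocorticoid receptor motif in Glul, Lcn2, Serpina3n and Slc1a2.

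Gfap encodes the intermediate filament by which astrocytes are usually recognised and whose rise is the common sign of reactivity. Its normalized count had a lowest, median and highest value of 13086, 24173 and 28990 in Veh, 9327, 13694 and 18662 in Dox, and 14130, 16003 and 25642 in Dox + ABT. All 8 Dox rats lay below the Veh median and 3 of them below every Veh rat. Mean Gfap was 22475 ± 5246 (SD, n = 10) in Veh rats. Dox rats averaged 13352 ± 3228 (SD, n = 8), and Dox + ABT rats 17199 ± 3768 (SD, n = 8). Gfap in Dox was 0.595 times its level in Veh (log2 fold change -0.75, standard error 0.15, limma p = 4.07e-05, adjusted p = 0.0547 over all genes tested). It was lower within both kinds of library, by -0.68 in the first (p = 0.000847) and -0.59 in the second (p = 0.000623), and in the second kind the 3 Dox rats (15018 to 18662) did not reach the 6 Veh rats (20948 to 26849). With the kind as a covariate the log2 fold change was -0.63 and the adjusted p 0.0201.

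In Dox + ABT, Gfap took a middle place. Its log2 fold change against Veh was -0.37 (p = 0.0228), which missed the threshold, and 7 of 8 rats lay below the Veh median. Dox against Dox + ABT gave -0.38 (p = 0.0278). With the kind entered as a covariate the first of these shrank to -0.12 (p = 0.313) and the second grew to -0.51 (p = 0.000229, adjusted p = 0.0832). The 1 Dox + ABT library of the second kind, that of rat 4, held the group's highest value of 25642, and without it the difference from Veh passed (-0.46, p = 0.00532), as it did without Veh rat 10 (-0.45, p = 0.00380). Without Dox rats 1 and 2, whose Gfap was the lowest of all 26 rats, Dox against Dox + ABT was -0.23 (p = 0.181), and Dox against Veh was -0.60 (p = 0.000803).

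Gfap was deposited as 3 transcript rows, and the fall lay in the most abundant. That row had mean normalized counts of 22228 in Veh, against 13098 in Dox and 16868 in Dox + ABT (Dox against Veh -0.76, p = 5.49e-05 in a fit over all rows). The 2 minor rows averaged 195 and 52.1 in Veh and gave log2 fold changes of -0.01 (p = 0.977) and 0.28 (p = 0.475). Both minor rows were 0.41 and 0.88 higher in Dox + ABT than in Veh (p = 0.0371 and 0.0307), short of the threshold. How reads shared by the transcripts were divided is not given in the sources used here.

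**Figure D1:**
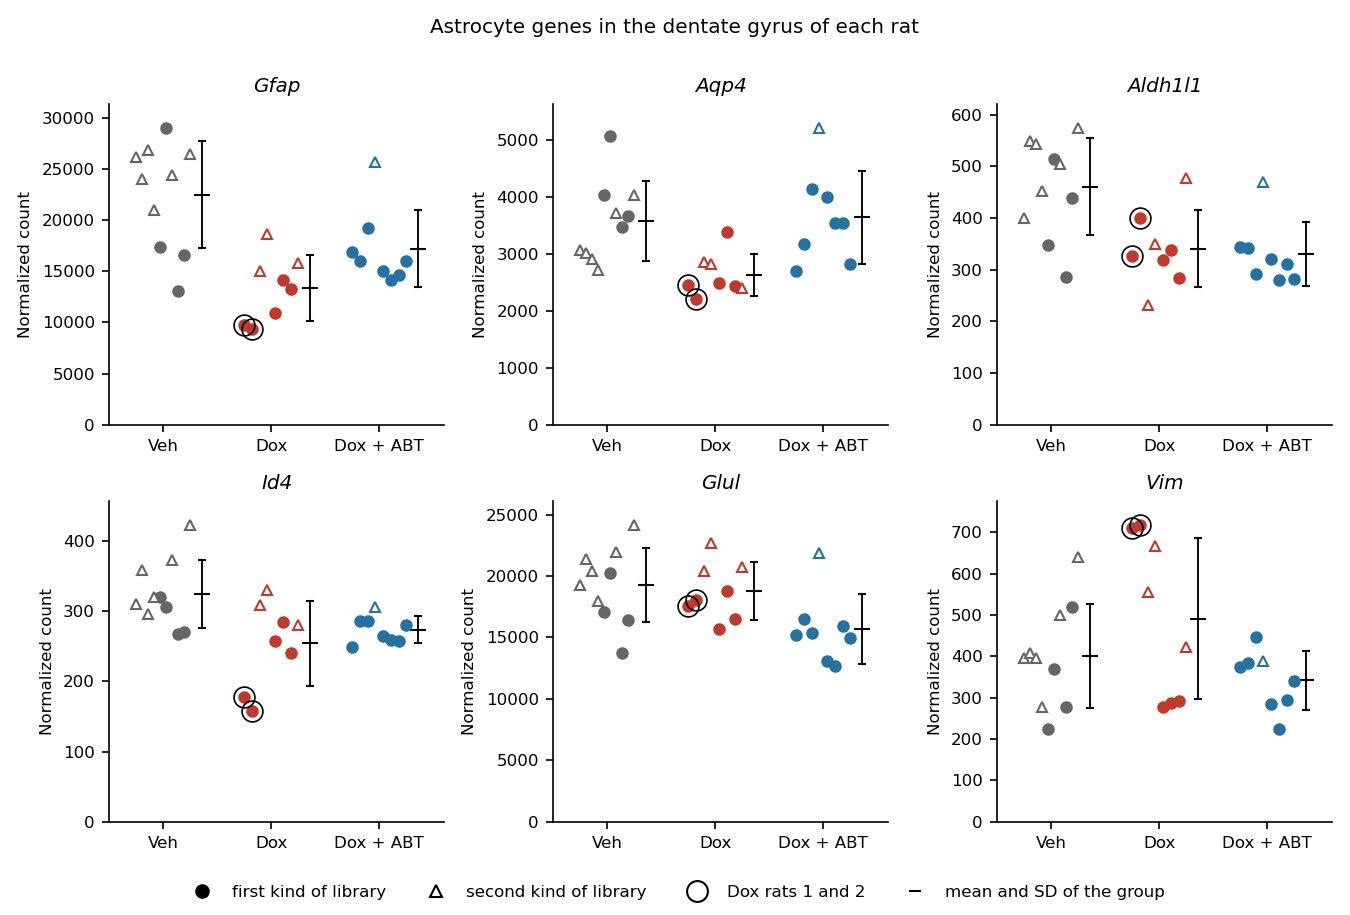
Normalized counts of 6 astrocyte genes (y axes from 0) in each rat of the 3 groups (x axes); filled circles are libraries of the first kind, open triangles of the second, black rings mark Dox rats 1 and 2, and bars give the mean and SD of a group. All 8 Dox rats sit below the Veh median for Gfap, Aqp4 and Aldh1l1, while Vim spreads from 278 to 718 within Dox.

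The other reactive genes did not pass the threshold. Vim, a second intermediate filament that reactive and immature astrocytes hold along with vessel cells, had a lowest, median and highest normalized count of 224, 395 and 642 in Veh, 278, 489 and 718 in Dox, and 223, 357 and 447 in Dox + ABT. Within Dox the values split, with 3 rats above every Veh rat and 3 below the Veh median. The log2 fold change was 0.25 against Veh (95% interval -0.18 to 0.68, p = 0.244) and 0.44 against Dox + ABT (p = 0.0539). Cd44, a hyaluronan receptor of fibrous and reactive astrocytes, had 39.4, 62.0 and 141 in Veh, 36.4, 49.0 and 79.7 in Dox, and 39.7, 56.8 and 137 in Dox + ABT. In Dox 7 of 8 rats lay below the Veh median, though only 1 lay below every Veh rat. The log2 fold change of Cd44 was -0.31 against Veh (95% interval -0.80 to 0.18, p = 0.211), with -0.61 in the first kind and -0.18 in the second. These intervals are wide and leave room for changes of either sign.

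Lcn2, which encodes the secreted iron-siderophore carrier lipocalin 2 and is strongly induced in astrocytes by inflammatory cytokines, separated 2 rats from all others. Dox rat 1 had a normalized count of 23.7 and Dox rat 2 one of 32.9. The other 24 rats ranged from 0 to 4.72, and the other 6 Dox rats from 0 to 1.03. The median was 0.412 in Veh, against 0.489 in Dox and 0.510 in Dox + ABT. At these levels 1 read more or less moves a value visibly, and no test was made.

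The same 2 rats were extreme in several further genes. Socs3, an inhibitor induced by cytokine receptors that act through STAT3, was 93.9 and 182 in Dox rats 1 and 2 and between 4.42 and 18.8 in the other 24. Osmr, a receptor subunit for oncostatin M, was 47.4 and 51.6 in them and at most 16.5 elsewhere. Cd14, the lipopolysaccharide co-receptor, was 163 and 164 in them and at most 36.3 elsewhere. Among the astrocyte genes, they had the highest Vim (710 and 718), the highest Fgfr3 (2351 and 2413), and the lowest Gfap (9698 and 9327), Id4 (178 and 157) and Fabp7 (262 and 259) of the 26. High Lcn2 and Vim thus went with low Gfap in these rats. Cd44 did not mark them (79.7 and 54.0, with other rats from 36.4 to 141). The rats were singled out after their values were seen, and no comparison of them with the remaining rats was tested.

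**Figure D2:**
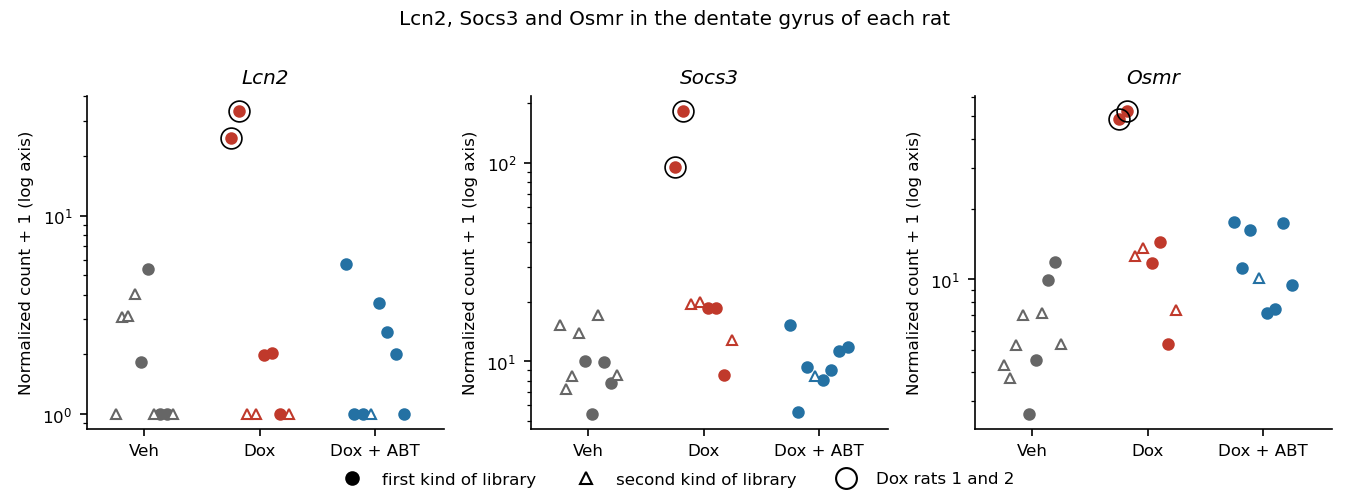
Normalized counts + 1 of Lcn2, Socs3 and Osmr (logarithmic y axes) in each rat of the 3 groups (x axes); symbols show the kind of library and black rings mark Dox rats 1 and 2. The ringed rats lie above the other 24 in all 3 panels, whereas the other 6 Dox rats have Lcn2 of at most 1.03.

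Among the genes for uptake, ion and water transport, Aqp4 was the single gene called between Dox and Veh. Aqp4, the water channel of astrocyte endfeet at vessels, had a lowest, median and highest normalized count of 2728, 3575 and 5070 in Veh, 2215, 2469 and 3383 in Dox, and 2695, 3544 and 5216 in Dox + ABT. All 8 Dox rats were below the medians of both other groups, and 5 of them were below every Veh rat and 5 below every Dox + ABT rat. The log2 fold change of Aqp4 was -0.43 against Veh (standard error 0.12, p = 0.00132, adjusted p = 0.188) and -0.45 against Dox + ABT (standard error 0.13, p = 0.00135, adjusted p = 0.166). Dox + ABT and Veh differed by 0.02 (95% interval -0.22 to 0.27, p = 0.856), so Aqp4 was lower in Dox than in either other group. With libraries weighted by quality its difference from Veh missed the threshold (-0.29, p = 0.0175). Both comparisons share the same Dox rats.

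Against Dox + ABT, Aqp4 was the single gene called of the 32 (3.12%, against 4.03% of all genes tested, 1.71% lower and 2.32% higher). With the kind as a covariate Gfap and Fgfr3 joined it, beside 4.76% of all genes. The count rose to 4 without Dox rat 7 and to 3 without Dox + ABT rat 4, and it was 2 without Veh rat 10 or without Dox rat 5, 9 or 13. Its difference from Veh was larger in the first kind of library (-0.65, p = 0.000204) than in the second (-0.26, p = 0.0738), where it missed the threshold, and the test of the difference between kinds (0.39) gave p = 0.0633. Without Dox rats 1 and 2 it was -0.38 (p = 0.00900) against Veh and -0.40 (p = 0.00828) against Dox + ABT, fits in which 1.16% and 2.96% of all genes were called, and 8.3% between Dox + ABT and Veh. Of its 4 transcript rows, the third had the largest fold change, with means of 475 in Veh, against 273 in Dox and 537 in Dox + ABT, and it gave -1.08 against Dox + ABT (p = 7.70e-05). In that comparison the second row also passed (-0.48, p = 0.00373). The most abundant row and the fourth did not (-0.34, p = 0.0459 and -0.44, p = 0.330). Against Veh the second row and the third row passed in the fit over all rows (-0.44, p = 0.00505 and -0.93, p = 0.000224), and the most abundant row did not (-0.35, p = 0.0304).

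The glutamate transporters were not called when their rows were summed. Slc1a2, the main glutamate carrier of mature astrocytes, ranged from 2264 to 6879 with a median of 3943 in Veh, from 2945 to 5867 with a median of 3902 in Dox, and from 2859 to 5324 with a median of 3532 in Dox + ABT. Its log2 fold change in Dox was -0.08 (95% interval -0.49 to 0.32), with 4 rats on either side of the Veh median. Slc1a3, the second glutamate carrier, which radial stem cells also hold, had medians of 10722 in Veh, against 13258 in Dox and 12734 in Dox + ABT, with ranges of 7994 to 15067, 7690.5 to 13487 and 11647 to 14959. Its log2 fold change was 0.03 in Dox (95% interval -0.26 to 0.32) and 0.25 in Dox + ABT (p = 0.0881), where it was -0.12 in the first kind of library alone (p = 0.131) and 0.36 with weighted libraries (p = 0.00268). Of its 4 rows the most abundant gave -0.01 in Dox + ABT (p = 0.944), and the third and the fourth were higher there than in Veh (0.58, p = 0.00898 and 1.60, p = 0.00315). Atp1b2, a subunit of the sodium pump that also mediates adhesion, was -0.26 in Dox with all 8 rats below the Veh median and p = 0.0118, just short of the threshold. Slc7a10, Slc4a4 and Slc39a12, carriers of serine, bicarbonate and zinc, lay between -0.15 and 0.13 in Dox.

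Aldh1l1, an enzyme of folate metabolism used as a pan-astrocyte marker, had a lowest, median and highest normalized count of 286, 478 and 574 in Veh, 231, 332 and 478 in Dox, and 280, 316 and 470 in Dox + ABT. All 8 Dox and all 8 Dox + ABT rats lay below the Veh median, and 2 of each group were below every Veh rat. Aldh1l1 fell in Dox (log2 fold change -0.43, standard error 0.14, p = 0.00340, adjusted p = 0.261) and in Dox + ABT (-0.47, standard error 0.14, p = 0.00175, adjusted p = 0.109), and Dox and Dox + ABT differed by 0.03 (95% interval -0.26 to 0.33). It was lower in Dox within each kind, by -0.22 in the first (p = 0.133) and by -0.56 in the second (p = 0.0129), neither of which passed alone, and without Dox rat 5 the pooled difference missed the threshold (-0.36, p = 0.0117). The Dox + ABT difference of Aldh1l1 did not pass with the kind as a covariate (-0.33, p = 0.0183) or in the first kind alone (-0.32, p = 0.0251).

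Glul, the glutamine synthetase that turns the glutamate taken up into glutamine, was called lower in Dox + ABT than in Veh and was not called in Dox. Its lowest, median and highest counts were 13705, 19755 and 24145 in Veh, 15660, 18388 and 22701 in Dox, and 12660, 15284 and 21891 in Dox + ABT. Glul was -0.03 in Dox (95% interval -0.25 to 0.19) and -0.30 in Dox + ABT (p = 0.00965, adjusted p = 0.125), where 7 of 8 rats lay below the Veh median. In the first kind of library alone, which holds 7 of the 8 Dox + ABT rats, the difference was -0.18 (p = 0.0901), and with the kind as a covariate -0.13 (p = 0.136). The call on Glul was also lost in 19 of the 26 fits that left out 1 rat each, in which the log2 fold change ran from -0.37 to -0.26. Compared directly, Dox against Dox + ABT gave 0.27 for Glul (limma p = 0.0240, adjusted p = 0.314), short of the threshold.

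The remaining enzymes were Aldoc, the brain aldolase, Acsbg1, a fatty acid activating enzyme, and Ppp1r3c, a regulator of glycogen. Aldoc, with medians of 16022 in Veh, against 13086 in Dox and 11307 in Dox + ABT, and ranges of 9654 to 19466, 10871 to 18102 and 9437 to 15684, gave -0.13 (p = 0.337) in Dox and -0.34 (p = 0.0214) in Dox + ABT. In the first kind of library alone Aldoc was 0.13 in Dox (p = 0.356), the other direction. Acsbg1 gave -0.27 (p = 0.0104) and -0.25 (p = 0.0176), and Ppp1r3c -0.29 (p = 0.0591) and -0.34 (p = 0.0278). All 5 enzymes had negative log2 fold changes in both treated groups, though Glul in Dox was close to 0, with 1 called in Dox (2.87% of all genes) and 2 in Dox + ABT (7.84%). Ppp1r3c in Dox was -0.40 in the first kind (p = 0.00381) and 0.08 in the second (p = 0.581). With the kind as a covariate all 5 stayed lower in Dox + ABT and 4 in Dox, with medians of -0.15 and -0.17, and 0 and 1 were called by limma (1 and 2 at p under 0.05), beside 1.37% and 2.7% of all genes.

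Id4, an inhibitor of basic helix-loop-helix factors that keeps neural stem cells quiescent and is found in astrocytes, had a lowest, median and highest count of 268, 316 and 423 in Veh, 157, 269 and 330 in Dox, and 249, 273 and 305 in Dox + ABT. In Dox, 7 of 8 rats lay below the Veh median and 4 below every Veh rat, as did 4 of the 8 Dox + ABT rats. Id4 fell in Dox (log2 fold change -0.38, standard error 0.12, p = 0.00352, adjusted p = 0.261). The difference missed the threshold without Dox rat 1 (-0.31, p = 0.0123), without Dox rat 2 (-0.28, p = 0.0125) and without both (-0.19, p = 0.0541). Within the kinds of library Id4 was -0.41 in the first (p = 0.00971) and -0.17 in the second (p = 0.218), and with the kind as a covariate -0.30 (p = 0.00500). Id3, Ndrg2 and Sox9 did not pass in any comparison in the unweighted fit of all rats. With weighted libraries, where 34% of all genes were called, all 3 were called lower in Dox + ABT than in Veh. Id3 was -0.56 there (p = 0.00140), Ndrg2 -0.36 (p = 0.00102) and Sox9 -0.64 (p = 0.000889). Unweighted, Ndrg2 was -0.12 in Dox (p = 0.364) and -0.30 in Dox + ABT (p = 0.0261). Id3 in Dox was 0.14 in the first kind and -0.34 in the second (p = 0.570 and 0.0306). Sox9, the transcription factor that specifies glia, had medians of 690 in Veh, against 646 in Dox and 537 in Dox + ABT, with ranges of 436 to 1140, 528 to 2686 and 430 to 725. Its highest value, 2686 in Dox rat 5, stood far above the highest Veh value of 1140, and the difference of Sox9 between Dox and Veh was 0.17 (p = 0.478).

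The genes of gap junction coupling and perivascular adhesion were not called in Dox. Gja1, the main connexin of astrocytes, had medians of 4405 in Veh, against 5248 in Dox and 5106 in Dox + ABT, with ranges of 3447 to 6918, 3482 to 6013 and 4789 to 6431, and its log2 fold change in Dox was 0.06 (95% interval -0.21 to 0.32). Gjb6, the second astrocyte connexin, was 0.11 (p = 0.492) in Dox (within kinds, 0.42 in the first and -0.08 in the second) and -0.33 (p = 0.0422) in Dox + ABT. Mlc1 and Hepacam, membrane proteins that together anchor endfeet, gave -0.10 and 0.03 in Dox. None of these 4 genes was called at p under 0.01 in the 3 comparisons of all rats, fitted by group alone without weights and with rows summed, and 1, Gjb6, was under 0.05 in both comparisons with Dox + ABT. Other fits did call 3 of them. In libraries of the first kind Gja1 was lower in Dox + ABT than in Veh (-0.25, p = 0.00344), opposite to its pooled log2 fold change of 0.18, and with libraries weighted by quality it was higher (0.31, p = 0.00714). Gjb6 was higher in Dox than in Dox + ABT in the first kind (0.50, p = 0.00780) and with its highest row (0.46, p = 0.00960), and lower in Dox + ABT than in Veh with weights (-0.49, p = 0.000654). Hepacam was higher in Dox than in Dox + ABT in the first kind (0.38, p = 0.00167). Between Dox + ABT and Veh, weighted fits called 34% of all genes, and the first kind alone 1.1%. Between Dox and Dox + ABT, the first kind alone called 8.18% of all genes and the highest row 3.82%. Mlc1 in Dox + ABT against Veh was -0.10 in the first kind (p = 0.326) and 0.13 pooled.

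Secreted and calcium-binding members were not called in the fit of all rats, though some alternatives called them. S100b, a calcium-binding protein of mature astrocytes, had medians of 14688 in Veh, against 16826 in Dox and 18391 in Dox + ABT, with ranges of 10646 to 25314, 11220 to 20007 and 16697 to 20100. All 8 Dox + ABT rats lay above the Veh median, and the log2 fold change of S100b was 0.31 (p = 0.0380) there and 0.07 (p = 0.635) in Dox. S100b moved with the kind of library: Veh averaged 18886 in the first kind and 12818 in the second, and within the first kind Dox + ABT, at 18131, did not exceed Veh (-0.04, p = 0.737). With quantile normalization (0.45, p = 0.00675) and with weighted libraries (0.41, p = 0.00197) S100b was called higher in Dox + ABT. Clu, which encodes the chaperone and lipid carrier clusterin, was -0.32 in Dox (p = 0.0104), with 7 of 8 rats below the Veh median, and was called lower with weights (p = 0.00734), quantile normalization (p = 0.00178) and its highest row (p = 0.00458). Sparcl1, a synapse-promoting matrix protein, did not pass in Dox (95% interval -0.24 to 0.24). Of the receptors, Fgfr3 was 0.39 in Dox (p = 0.0131) with 6 of 8 rats above the Veh median. It was called higher in the first kind of library alone (0.41, p = 0.00715), with libraries weighted by quality (0.60, p = 2.37e-05) and with the highest transcript row (0.42, p = 0.00544), but not in the second kind (0.10, p = 0.496), with the kind as a covariate (0.28, p = 0.0152) or without Dox rats 1 and 2 (0.23, p = 0.126). The other receptors, Ntsr2, F3 and Bmpr1b, lay between -0.26 and 0.05. Within the kinds Ntsr2 was 0.01 in the first and -0.54 in the second, where it was called (p = 0.00606), and Bmpr1b was -0.50 and 0.44 (p = 0.0761 and 0.136). Nes, the nestin filament of radial glia and stem cells, ranged from 46.8 to 171 in Veh, from 61.1 to 136 in Dox and from 65.9 to 92.8 in Dox + ABT, and gave 0.07 in Dox (p = 0.723) and -0.14 in Dox + ABT (p = 0.480; 0.14 in the first kind alone). Sparcl1 was 0.19 in Dox + ABT (p = 0.117) and -0.19 in the first kind (p = 0.0800), and was called with weights (0.36, p = 0.00156). Of all genes, weighted fits called 34% for Dox + ABT versus Veh, compared with 20.2% for Dox versus Veh.

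**Figure D3:**
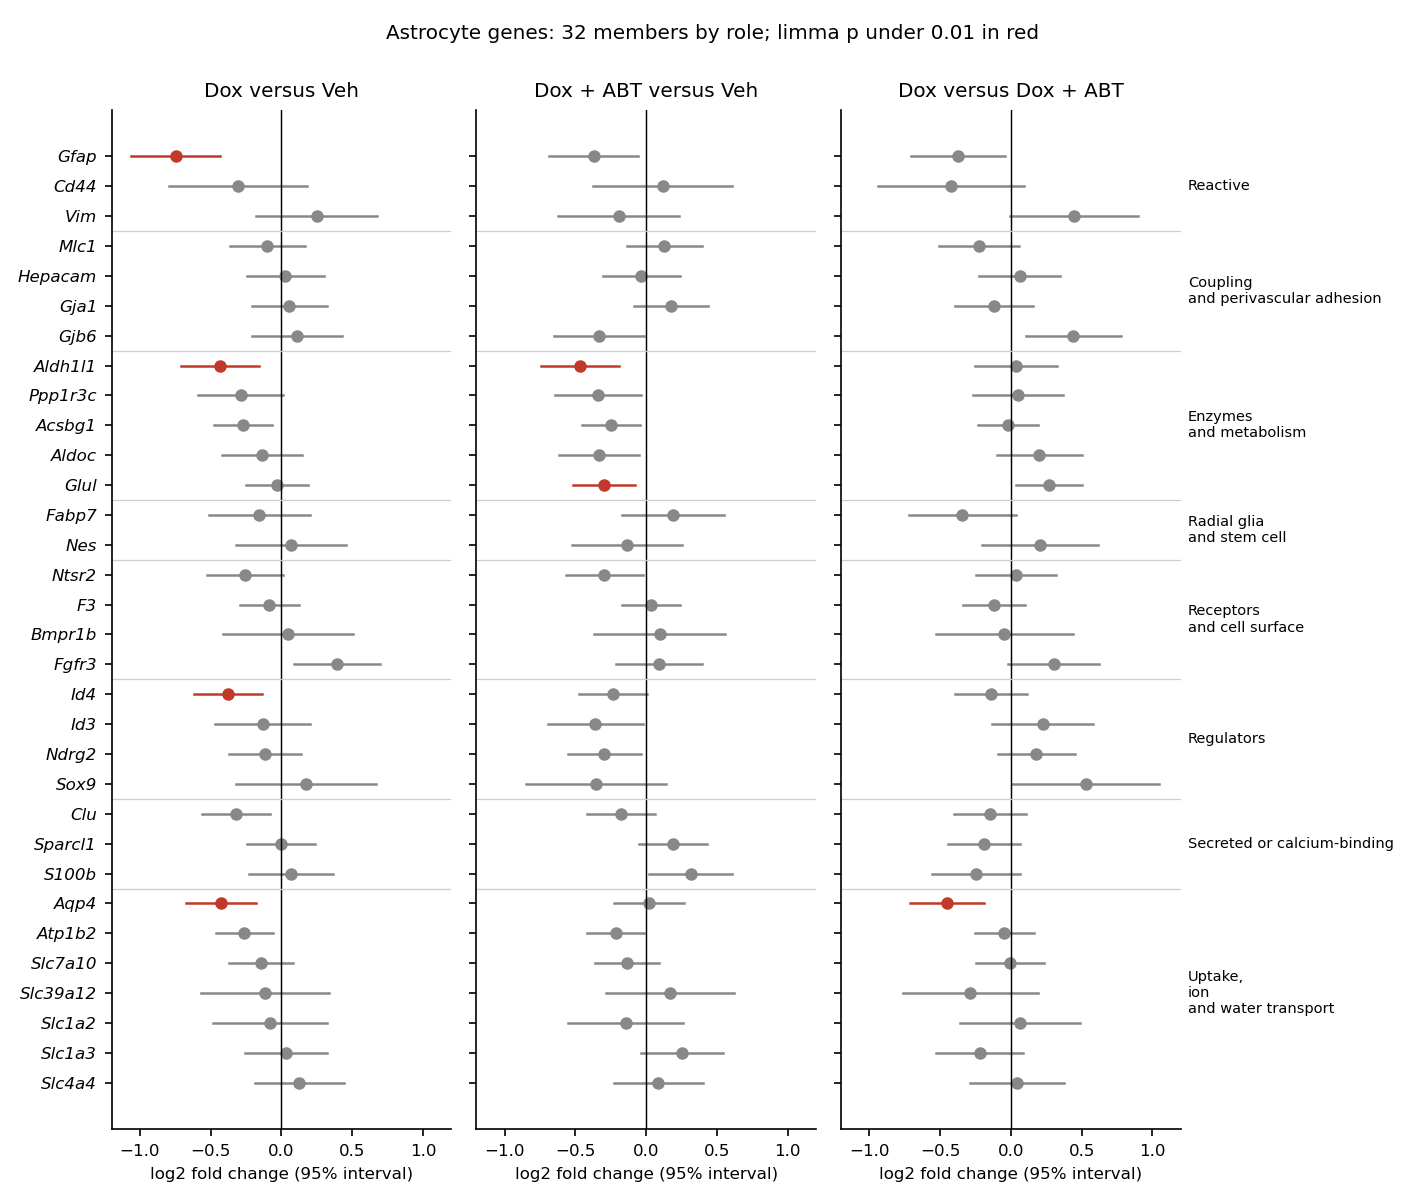
Log2 fold changes (x axes, with 95% intervals) of the 32 astrocyte genes in the 3 comparisons, grouped by role from top to bottom; red marks limma p under 0.01. Gfap, Aqp4, Aldh1l1 and Id4 are red on the lower side in Dox versus Veh, Aldh1l1 and Glul in Dox + ABT versus Veh, and Aqp4 in Dox versus Dox + ABT.

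Dox + ABT against Veh called 2 of the 32 genes, Aldh1l1 and Glul, both lower (6.25%), below the 7.84% of all genes tested that were called, of which 3.95% were lower and 3.89% higher. Leaving out 1 rat gave counts from 1 to 7, with 7 without Dox + ABT rat 4, 5 without Veh rat 10 and 4 without Veh rat 11. It was 0 with the kind as a covariate, where 1.37% of all genes were called. The identity genes had a median log2 fold change of -0.14 with 17 of 29 negative, and the 3 reactive genes a median of -0.19. Dox against Dox + ABT gave a median of -0.01 over identity genes, with 15 of 29 negative, and -0.38 over the reactive genes, of which Gfap and Cd44 were lower and Vim higher. Reactive medians rest on 3 genes and are in effect the value of the middle gene. Between Dox and Veh the reactive median of -0.31 was that of Cd44, with Gfap at -0.75 and Vim at 0.25 on either side.

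In 2 members the change in Dox differed between the kinds of library at limma p under 0.01, with opposite signs. Among others, Bmpr1b, Id3, Gjb6 and Ppp1r3c also had opposite signs in the 2 kinds but missed that threshold. Fabp7, a brain fatty acid binding protein of radial glia and astrocytes, was 259 to 351 in the 5 Dox rats of the first kind and 399 to 524 in the 4 Veh rats of that kind. In the second kind it was 562 to 747 in the 3 Dox rats and 361 to 555 in the 6 Veh rats. Every Dox rat was thus outside the whole range of Veh, 5 below it and 3 above it. The log2 fold change was -0.60 in the first kind and 0.56 in the second, and the test of their difference gave p = 1.09e-05 (adjusted p = 0.0340), 1 of 5 genes at an adjusted p under 0.05. Pooled, Fabp7 showed -0.16 (p = 0.385).

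Hepacam went the opposite way. It was 650 to 759 in Dox rats of the first kind, where Veh ran from 515 to 688, and 374 to 480 in Dox rats of the second, where Veh ran from 464 to 703. Its log2 fold change was 0.25 in the first kind and -0.40 in the second, with a difference of -0.65 (p = 0.00184, adjusted p = 0.102). Over all genes 7.16% differed between kinds at p under 0.01, so that 2 of 32 is not more than the background. The second kind held 3 Dox rats, and what set the kinds apart was not tested.

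**Figure D4:**
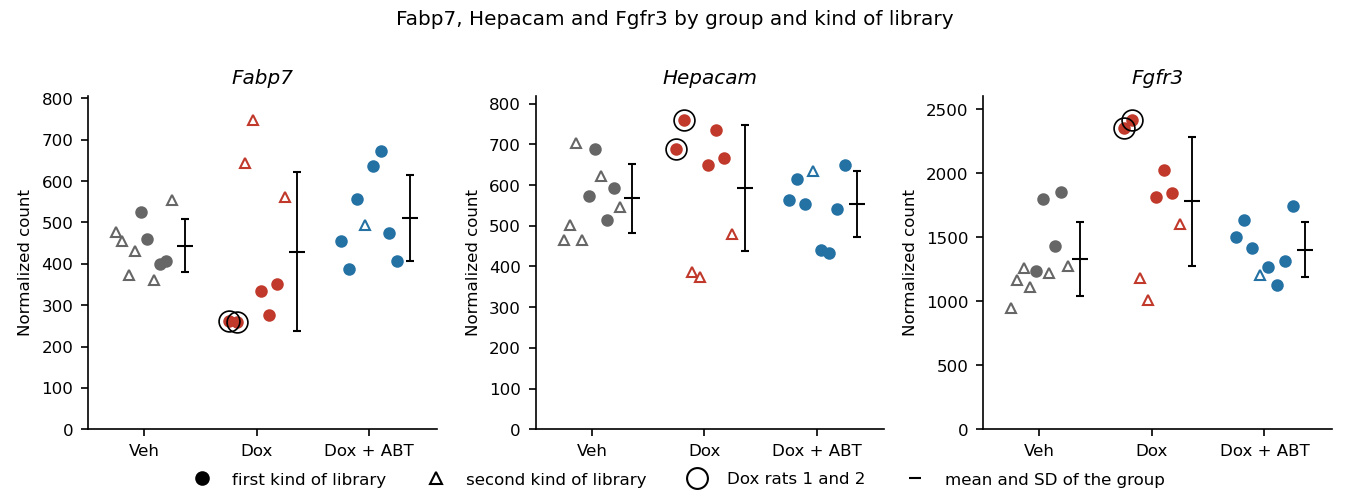
Normalized counts of Fabp7, Hepacam and Fgfr3 (y axes from 0) in each rat of the 3 groups (x axes); filled circles are libraries of the first kind and open triangles of the second, black rings mark Dox rats 1 and 2, and bars give the mean and SD. For Fabp7 the 5 circles of Dox lie below and the 3 triangles above the range of Veh from 361 to 555.

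Deviations of each rat from the mean of its group and kind showed which members varied together, over the 25 rats left when the lone Dox + ABT library of the second kind was set aside. The closest pairs were Mlc1 and Clu (Pearson r = 0.87, Spearman rho = 0.90), Ntsr2 and Clu (r = 0.87, rho = 0.90), Aldoc and Ndrg2 (r = 0.84, rho = 0.75) and Slc1a2 and Slc4a4 (r = 0.84, rho = 0.79). The most negative pairs were Fabp7 and Fgfr3 (r = -0.69, rho = -0.69) and Fabp7 and Hepacam (r = -0.68, rho = -0.70), while Fabp7 had r = 0.48 with Ppp1r3c and 0.44 with Aqp4. Over the 406 pairs of identity genes r had a median of 0.20 and a range from -0.69 to 0.87, and for Gfap with each of the other 31 members a median of 0.38 and a range from -0.29 to 0.64. The points share their library, its depth and the tissue piece taken, and no test was attached.

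Genes of astrocytes outside the 36 named ones were read from a second list of 38, of which 37 were tested. The list was chosen with earlier results of these data known, so its shares are a description only. In Dox 10 of the 37 were lower than in Veh and 1 was higher at p under 0.01 (29.7%, against 2.87% of all genes tested), with 28 of 37 negative and a median of -0.19. The lower ones were Slc25a18, a mitochondrial glutamate carrier, Entpd2, an ectonucleotidase of astrocytes and dentate stem cells, Slco1c1, the thyroxine transporter of astrocytes and brain endothelium, Pla2g7, Fzd2, Cldn10, Mfge8, Rorb, Grin2c and Tril. Slc25a18 was 515 to 923 with a median of 758 in Veh, 355 to 645 with a median of 483 in Dox and 477 to 825 with a median of 607 in Dox + ABT. All 8 Dox rats lay below the Veh median, and the log2 fold change was -0.59 (p = 9.60e-05, adjusted p = 0.0936). Entpd2 was 490 to 862 in Veh and 261 to 654 in Dox and gave -0.62 (p = 0.000274).

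Etnppl, an enzyme that degrades phosphoethanolamine, was the single further astrocyte gene that rose. Its values were 129 to 247 with a median of 161 in Veh, 181 to 432 with a median of 270 in Dox and 142 to 223 with a median of 193 in Dox + ABT. Each of the 8 Dox rats exceeded the Veh median, and Etnppl rose by 0.66 on the log2 scale against Veh (p = 0.000299) and by 0.56 against Dox + ABT (p = 0.00277). Dox rats 1 and 2 held the highest values, 432 and 420. Without them Etnppl was 0.44 against Veh (p = 0.00517), and the second list had 5 lower and 1 higher of 37 (16.2%, against 1.16% of all genes tested). Those that lost their call were Fzd2 (-0.35, p = 0.0325), Mfge8 (-0.39, p = 0.0565), Rorb (-0.47, p = 0.0398), Grin2c (-0.17, p = 0.0547) and Tril (-0.24, p = 0.0574). Of the 32 members 3 were then called between Dox and Veh, Gfap, Aqp4 and Aldh1l1.

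In Dox + ABT 4 of the 37 further astrocyte genes were lower than in Veh (Phgdh, Pla2g7, Mfge8 and Fzd2; 10.8%, against 7.84% of all genes) and none was higher, and with the kind as a covariate limma called 0 of them, with 4 at p under 0.05. Between Dox and Dox + ABT 2 were lower (Chrdl1 and Slco1c1) and 3 higher (Etnppl, Htra1 and Mertk), 13.5% against 4.03% of all genes. Without Dox rats 1 and 2 Chrdl1 kept its call (-0.56, p = 0.00542), and Slco1c1 (p = 0.0361), Etnppl (0.34, p = 0.0358), Htra1 (p = 0.0381) and Mertk (p = 0.103) lost theirs. Slco1c1 was 180 to 676 with a median of 483 in Dox, 549 to 1199 with a median of 692 in Veh and 594 to 734 with a median of 665 in Dox + ABT. It was lower in Dox than in both, by -0.74 against Veh (p = 0.000627) and by -0.65 against Dox + ABT (p = 0.00367). Without Dox rats 1 and 2 these were -0.38 (p = 0.00446) and -0.28 (p = 0.0361), so the second call was lost.

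Of a list of 38 further genes linked to reactive astrocytes, likewise chosen with earlier results known, 35 were tested. Between Dox and Veh 4 were higher, Osmr, Socs3, the glucocorticoid-induced co-chaperone gene Fkbp5 and the protease inhibitor gene A2m, and 2 were lower, the complement gene C3 and the interferon-induced gene Gbp2 (17.1% called, against 2.87%). The median over the 35 was -0.03, with 19 negative. C3 was 333 to 670 with a median of 411 in Veh, 97.4 to 451 with a median of 280 in Dox and 320 to 735 with a median of 461 in Dox + ABT, and 5 of the 8 Dox rats lay below every Veh rat. Its log2 fold change was -0.86 against Veh (p = 0.00133) and -0.94 against Dox + ABT (p = 0.000949). Without Dox rats 1 and 2 limma called 0 of the 35 between Dox and Veh, with 9 at p under 0.05, Socs3 at 0.68 (p = 0.0194), Osmr at 0.86 (p = 0.0140), A2m at 0.72 (p = 0.0171), Fkbp5 at 0.15 (p = 0.0286), Gbp2 at -0.50 (p = 0.0221) and C3 at -0.47 (p = 0.0209). Between Dox + ABT and Veh limma called 0 of the 35, with 4 at p under 0.05, and between Dox and Dox + ABT 1 was lower (C3) and 3 higher (Fkbp5, Socs3 and Cd14), 11.4% against 4.03% of all genes. These 4 were no longer called without Dox rats 1 and 2, with C3 at -0.54 (p = 0.0107), Fkbp5 at 0.19 (p = 0.0103), Socs3 at 0.72 (p = 0.0173) and Cd14 at 0.60 (p = 0.0531).

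Other cell types moved in the same samples. Of 7 microglia markers 4 were lower in Dox than in Veh (Aif1, Cx3cr1, Tmem119 and Itgam; median -0.50; 57.1%, against 2.87% of all genes), and their sum ran from 3406 to 5877 in Veh, from 2953 to 4792 in Dox and from 3039 to 5156 in Dox + ABT. These 4 calls were lost without Dox rats 1 and 2, with p = 0.0328 for Aif1, 0.0409 for Cx3cr1, 0.105 for Tmem119 and 0.108 for Itgam and a median of -0.24 over the 7. Of 4 meningeal and fibroblast genes 2 were lower (Col3a1 and Lum), and their sum ran from 112 to 235 in Veh and from 66.4 to 171 in Dox. Without these rats Col3a1 kept its call (-1.18, p = 0.000561) and Lum did not (-0.77, p = 0.0102). Of 7 neuron markers limma called 0, with 0 at p under 0.05 and a median of 0.08, and their sum ran from 62825 to 99225 in Veh and from 75513 to 94126 in Dox. Vessel markers had 1 of 6 higher (Kdr), and 4 red cell genes had a median of 0.97 with none called. Their part in the lower Gfap and Aqp4 was not tested.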

How the data were processed

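The authors sequenced poly(A) RNA of the DG on an Ion Proton, aligned the reads to rn6 with STAR 2.5.3a and deposited 1 table of normalized counts (a signal scaled by the median ratio method of DESeq2 in Partek Flow), with 24012 transcript rows in 17910 genes and 26 columns. How reads shared by transcripts were divided is not given in the sources used here. Raw counts could not be recovered: 74.5% to 77.5% of low values were whole multiples of 1 read within 0.01, so depth is an estimate and no count model was run.

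Rows were summed by gene, genes with a mean under 5 were dropped, and log2(normalized count + 1) was fitted with limma 3.58.1 (trend, R 4.3.3), all 3 groups in 1 fit. A gene was called at p under 0.01, the threshold of the study; adjusted p is Benjamini-Hochberg over the 15595 genes tested. The fit was first tested on simulated data with known changes. A rat is the replicate.

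All 36 members were named by rule. Those called in any comparison, the reactive genes and 9 defining genes were given by lowest, median and highest value, and the others by range or fold change; of the further lists called genes were named. The members and lists were chosen with earlier results of these data known. Alternatives covered the pseudocount, filter, trend, library weights, scaling (TMM, quantile), kind of library, transcript row, replicate block and each rat left out. The second kind alone, the interaction, single rows and the fit without Dox rats 1 and 2 were chosen after seeing the data.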

Additional observations from a re-analysis of the deposited data

Results flagged for a closer look

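In 6 of 99 groups of values, each 1 gene in the 8 or 10 rats of a treatment, the highest or lowest rat stood apart by Dixon's test at 95% on log2 values, about the 1 in 20 that chance gives. Dox + ABT rat 4, the group's single library of the second kind, was the highest of its group in 4 of the 6: Aldh1l1 was 470 in it and 343 in the next rat, Ndrg2 22002 and 15758, Acsbg1 4505 and 3475, and Clu 17864 and 13171. Ntsr2 was 719 in Dox rat 5, the lowest of its group, against 1008 in the next. Id3 was 816 in Dox rat 1, the highest of its group, against 712 in the next.

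For Fabp7 the difference between Dox and Veh differed between the kinds of library by 1.16 on the log2 scale (second minus first, limma p = 1.09e-05, adjusted p = 0.0340), and for Hepacam by -0.65 (p = 0.00184, adjusted p = 0.102). What separates the kinds was not tested.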

How the results depend on the processing

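The 4 calls between Dox and Veh became 7 with library weights (20.2% of all genes), 2 of them higher (Fgfr3 and Slc4a4), and Aqp4 not among them. Quantile normalization gave 6 (2.83% of all genes) and the highest row 6 (2.7%, Aqp4 lost, Fgfr3 higher). The first kind gave 6 (4.78%, with Aldh1l1 lost and Fabp7, Ppp1r3c and Fgfr3 gained). The second kind gave 3 (3.58%), Gfap, Ntsr2 and Fabp7, the last higher. With 1 rat left out the count was 3 to 7, and Gfap was called in each fit named so far. The 2 calls between Dox + ABT and Veh became 17 with library weights (34% of all genes). The count was 1 without a filter (6.99%), without a variance trend (7.01%), with TMM (7.98%) or without Dox rats 1 and 2 (8.3%). It was also 1 in the first kind alone (1.1%), where Gja1 was called and Aldh1l1 and Glul were both lost. With the kind as a covariate limma called 0 (1.37%, with 2 at p under 0.05). The highest row of each gene also gave 0 (7.48%, with 10 at p under 0.05), and 1 rat left out gave 1 to 7. The 1 call between Dox and Dox + ABT became 4 with library weights (10.3% of all genes), 2 with quantile normalization (4.09%) and 3 with the covariate (4.76%, Gfap, Aqp4 and Fgfr3). It became 6 in the first kind alone (8.18% of all genes), and 1 to 4 with 1 rat left out. With the highest row Gjb6 was the 1 call and Aqp4 was lost (3.82% of all genes). The cause of these shifts was not tested.

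The reactive median between Dox and Veh was -0.61 in the first kind. Identity medians stayed within 1 SD between rats under each alternative. With 1 rat left out they ran from -0.14 to -0.06, -0.18 to -0.06 and -0.05 to 0.04 in the 3 comparisons, and reactive medians from -0.40 to -0.18, -0.28 to -0.11 and -0.41 to -0.28.

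Some signs turned, for differences of up to 0.31 among the 25 members other than Gfap, Aqp4, Aldh1l1, Id4, Glul, Vim and Cd44. Between Dox and Veh, Glul was 0.0092 with quantile normalization, 0.051 with the covariate, 0.047 and 0.034 in the first and second kinds, and -0.081 to 0.010 with 1 rat left out. Between Dox + ABT and Veh, Aqp4 was -0.25 in the first kind, -0.012 in its highest row and -0.056 to 0.081 with 1 rat left out, and Cd44 was -0.39 in the first kind and -0.026 to 0.24 with 1 rat left out. Between Dox and Dox + ABT, Aldh1l1 was -0.036 with the covariate, -0.10 in its highest row, -0.0037 without Dox rats 1 and 2 and -0.039 to 0.11 with 1 rat left out, and Id4 was 0.046 without Dox rats 1 and 2. Of these 25 members, 40 of 375, 22 of 350 and 32 of 350 values under the alternatives changed sign in the 3 comparisons, 1, 1 and 0 of them with a call.

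Replicate numbers name different rats, and samples that share a number did not vary together (16 pairs, r from -0.22 to 0.44, median -0.01). With the number as a replicate block the calls were 3 (Gfap, Id4 and Fgfr3), 2 (Aldh1l1 and Gjb6) and 1 (Gjb6), so that Aqp4 lost both of its calls. Of all genes, 4.91%, 7.57% and 2.58% were called in these 3 comparisons. The reactive median was 0.10 for Dox versus Veh and 0.064 for Dox versus Dox + ABT, and Cd44, the middle gene in both, was 0.10 and 0.064. Estimated depth limits Lcn2 and other genes near the filter, where a few reads set a value.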
